A study of Punica granatum with 14 samples.

Results

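The comparison described here takes the 4 pomegranate plants grown with paclobutrazol as a single group and sets it against the 2 plants of CK, out of 14 plants in all. Its members were chosen by their labels alone, and they are replicates 1 and 2 of the 6 mg/L treatment and replicates 1 and 2 of the 8 mg/L treatment. All 14 plants were wild-type Punica granatum of the cultivar 'Hongmanao', raised in tissue culture from stem tips on a medium that held the auxin IBA, and leaf RNA was sequenced after 90 days of treatment, a number that the labels also give as the age. CK plants received distilled water in place of a growth retardant. The other 8 plants, 2 for each condition, received B9 at 6 or 8 mg/L or mannitol at 2.5 or 15 g/L, and they serve below as a second reference that holds no CK plant. Nothing in the labels says whether the plants of a condition came from separate explants, so p-values measure the spread between these plants only. The question is which genes moved the same way in every paclobutrazol plant, and how far each plant moved.

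Paclobutrazol is a triazole that shortens shoots. It blocks ent-kaurene oxidase, a cytochrome P450 early in the synthesis of gibberellins, the hormones that drive stem elongation. B9, or daminozide, also acts on gibberellin synthesis, at a late step, whereas mannitol is an osmotic agent that slows growth in culture. The gene symbols of the deposited table are locus numbers, and the sources used here pair them with no product name, so no gene below is given a function and the leaf label could not be checked against leaf marker genes.

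Total counts ran from 15790717 to 22495926 in the 4 paclobutrazol libraries and from 23363720 to 25139447 in the 2 CK libraries. The ranges do not overlap, so depth moved with treatment, and its part in the results was not tested. The table holds 27893 genes, of which 19478 had enough counts to be tested. Levels are given as CPM, the counts scaled to the TMM-adjusted size of each library. The values of treated plants always stand in the order 6 mg/L replicate 1, 6 mg/L replicate 2, 8 mg/L replicate 1, 8 mg/L replicate 2. As these are bulk leaf samples, fewer cells of a type and less RNA per cell cannot be told apart.

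Compared to CK, 561 genes were DEGs in the paclobutrazol plants, which is 2.88% of the genes tested. Genes counted as DEGs when they differed by more than 1 log2 unit with an adjusted p below 0.05 by the quasi-likelihood method of edgeR. Of these, 364 genes (1.87% of those tested) were upregulated and 197 (1.01%) were downregulated, so that 64.9% of the DEGs were higher than CK. With library size alone in place of TMM the split was 244 up and 308 down. The median log2 change of all tested genes was then -0.12, where it was 0.05 with TMM. The median log2 fold change was 1.67 among the upregulated DEGs and -2.08 among the downregulated ones. Leaving aside genes at a floor of 3 counts in either group, a log2 fold change over 2 was fitted for 122 up- and 91 downregulated genes, and one over 3 for 40 and 27, and the changes reached 5.59 and -7.59. When the 6 libraries of CK and paclobutrazol were fitted by themselves, edgeR called 1 gene, against 1911 at an unadjusted p under 0.05 with the same fold change, and DESeq2 called 1003. Leaving CK replicate 1 or CK replicate 2 out of the fit left 19 and 0 DEGs (1636 at an unadjusted p under 0.05 in the latter case), while leaving out replicate 1 of 6 mg/L gave 3840. Without replicate 2 of 6 mg/L there were 360 and without replicate 2 of 8 mg/L 127. With a term for replicate number in the fit to all libraries, 250 genes were DEGs, 243 of them among the 561.

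All 4 treated plants lay above both CK plants in each of the 364 upregulated genes and below both in each of the 197 downregulated genes. Such a complete separation was found in 15.6% of all tested genes in the upward and in 13.1% in the downward direction. The values of these same plants called the DEGs, so this separation and the stricter one below are partly built in. A stricter description asks that every treated plant differ from the CK mean by more than 1 log2 unit. This held for 210 upregulated genes, where 2.24% of all tested genes met it, and for 145 downregulated genes, where 1.9% did. In a further 121 upregulated and 41 downregulated genes exactly 3 of the 4 plants passed 1 log2 unit. The counts of 210 and 145 became 7 and 12 without CK replicate 1 and 0 and 0 without CK replicate 2, by edgeR. They became 1066 and 1375 without replicate 1 of 6 mg/L and 70 and 39 without replicate 2 of 8 mg/L, and the downregulated count was 90 without replicate 2 of 6 mg/L. With a treated plant left out, only the 3 plants still in the fit had to pass 1 log2 unit, which is a weaker demand.

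The plants did not move equally far. In the 364 upregulated genes the median log2 change from CK was 1.29 in 6 mg/L replicate 1, 1.98 in 6 mg/L replicate 2, 1.49 in 8 mg/L replicate 1 and 1.72 in 8 mg/L replicate 2. In the 197 downregulated genes the medians were -1.75, -2.30, -1.75 and -2.11 in the same order. Replicate 1 of 6 mg/L was the least changed plant in 217 of the 364 upregulated and in 81 of the 197 downregulated genes, more often than any other plant. Replicate 2 of the same dose was the most changed plant in 232 and 92 genes. Replicate 2 was above replicate 1 in 315 of the 364 upregulated genes at 6 mg/L and in 284 at 8 mg/L, and in 56 of the 197 downregulated genes at either dose. In the upregulated genes the largest and the smallest median thus came from plants of the same dose, with both 8 mg/L plants between them.

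**Figure D1:**
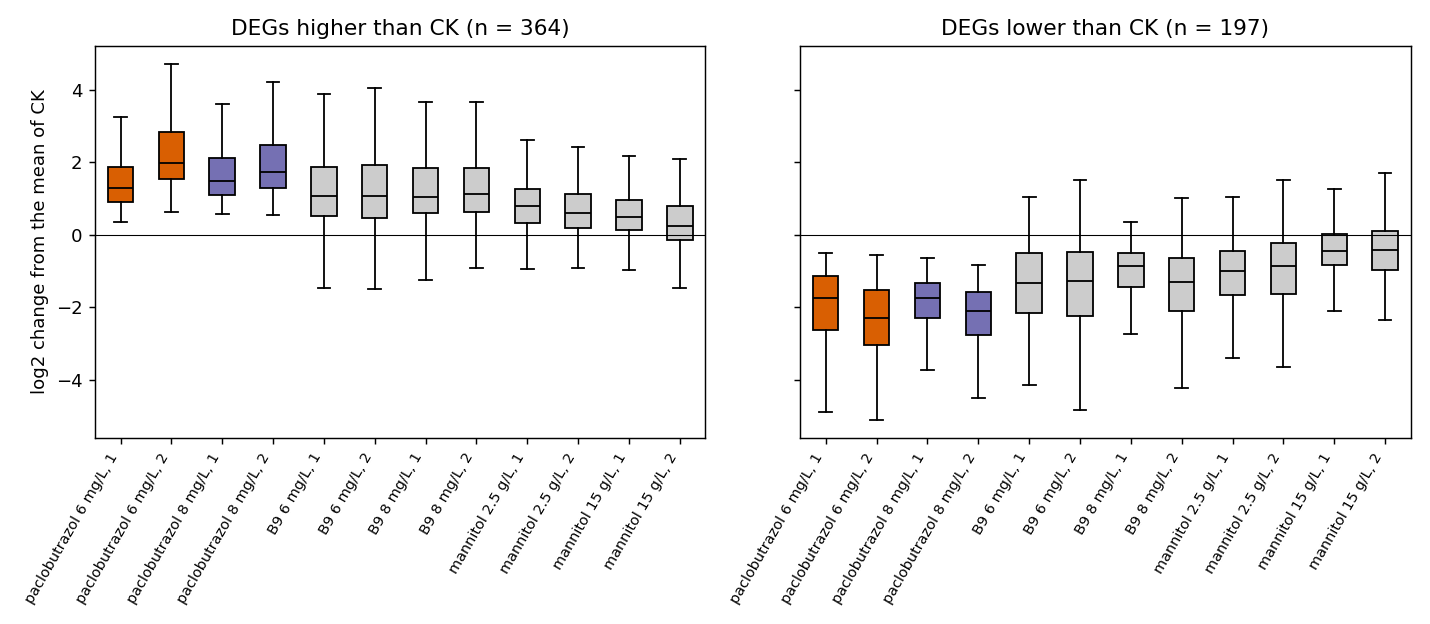
Box plots of the log2 change from the CK mean in each treated library, for the 364 DEGs higher than CK (left) and the 197 lower (right). Boxes span the quartiles with the median as a line, and whiskers reach at most 1.5 times the box beyond it. Orange is 6 mg/L and violet 8 mg/L paclobutrazol, and grey the B9 and mannitol libraries. The grey medians lie nearer to 0 than those of the 4 paclobutrazol plants. The distance of these 4 plants from CK chose the genes, so this contrast is partly built in.

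The same DEGs were shifted in the other treated plants as well. Their median log2 change from CK was 1.04 to 1.13 over the 4 B9 libraries and 0.24 to 0.80 over the 4 mannitol libraries for the upregulated genes. For the downregulated genes the ranges were -1.32 to -0.88 in B9 and -1 to -0.43 in mannitol. These changes are measured from the same 2 CK plants that helped to choose the DEGs, so a shift in the same direction is partly built in. A direct comparison of paclobutrazol with B9 and mannitol follows further on.

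The smallest adjusted p among upregulated genes belonged to LOC116201128, at 114 and 98.8 CPM in the CK plants and at 369, 313, 397 and 334 CPM in the treated plants. The 4 treated values lie close together and all lie well above the CK values, with a log2 fold change of 1.73 (SE 0.17, adjusted p = 0.00526). The B9 and mannitol plants also lay above both CK plants, at 287 to 399 CPM. LOC116203637 rose from 58.5 and 46.03 CPM to 171, 238, 169 and 219 CPM (log2 fold change 1.93), with the second replicate of each dose above the first. LOC116188207 stood at 80.7 and 70.8 CPM in CK and at 202, 225, 209 and 219 CPM under paclobutrazol, among the tightest groups of 4 of any DEG, while the 8 other treated plants stayed at 75.4 to 101 CPM. Its log2 fold change was 1.49 against CK and 1.29 against B9 and mannitol (adjusted p = 0.00909 and 0.000547).

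Larger changes were found at lower levels. LOC116213658 rose from 7.76 and 7.17 CPM to 33.8, 61.8, 32.6 and 47.6 CPM, a log2 fold change of 2.56 (SE 0.30). LOC116201476 stood at 14.997 and 13.996 CPM in CK and at 409, 225, 111 and 137 CPM in the treated plants, and here the 6 mg/L plants were the highest. Its lowest treated value is above the 25.3 to 49.8 CPM of the B9 and mannitol plants, with a log2 fold change of 3.93 (SE 0.55, adjusted p = 0.0178). LOC116200543 was nearly silent in CK, at 0.369 and 0.314 CPM, and reached 4.26, 7.22, 3.23 and 5.49 CPM under paclobutrazol. LOC116203993 went from 3.10 and 1.22 CPM to 15.5, 38.3, 23.1 and 20.8 CPM, where the CK plants differ from each other more than 2-fold but remain far below every treated plant.

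The remaining 5 of the 12 upregulated genes with the smallest adjusted p had log2 fold changes between 1.32 and 2.29. LOC116211958 measured 49.4 and 47.4 CPM in CK and 123, 155, 112 and 132 CPM in the treated plants. LOC116212960 measured 57.6 and 35.3 CPM and 179, 161, 137 and 167 CPM, with both doses interleaved. LOC116198499 stood at 22.1 and 15.996 CPM in CK and between 43.8 and 49.3 CPM in the treated plants, so the 2 doses and the 2 disagreeing replicates gave nearly the same level. LOC116201590 rose from 16.03 and 19.8 CPM to 97.03, 101, 96.2 and 55.8 CPM, with replicate 2 of 8 mg/L apart from the other 3 plants, and LOC116205873 rose from 1.37 and 1.06 CPM to 5.06, 5.11, 5.77 and 4.17 CPM.

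**Figure D2:**
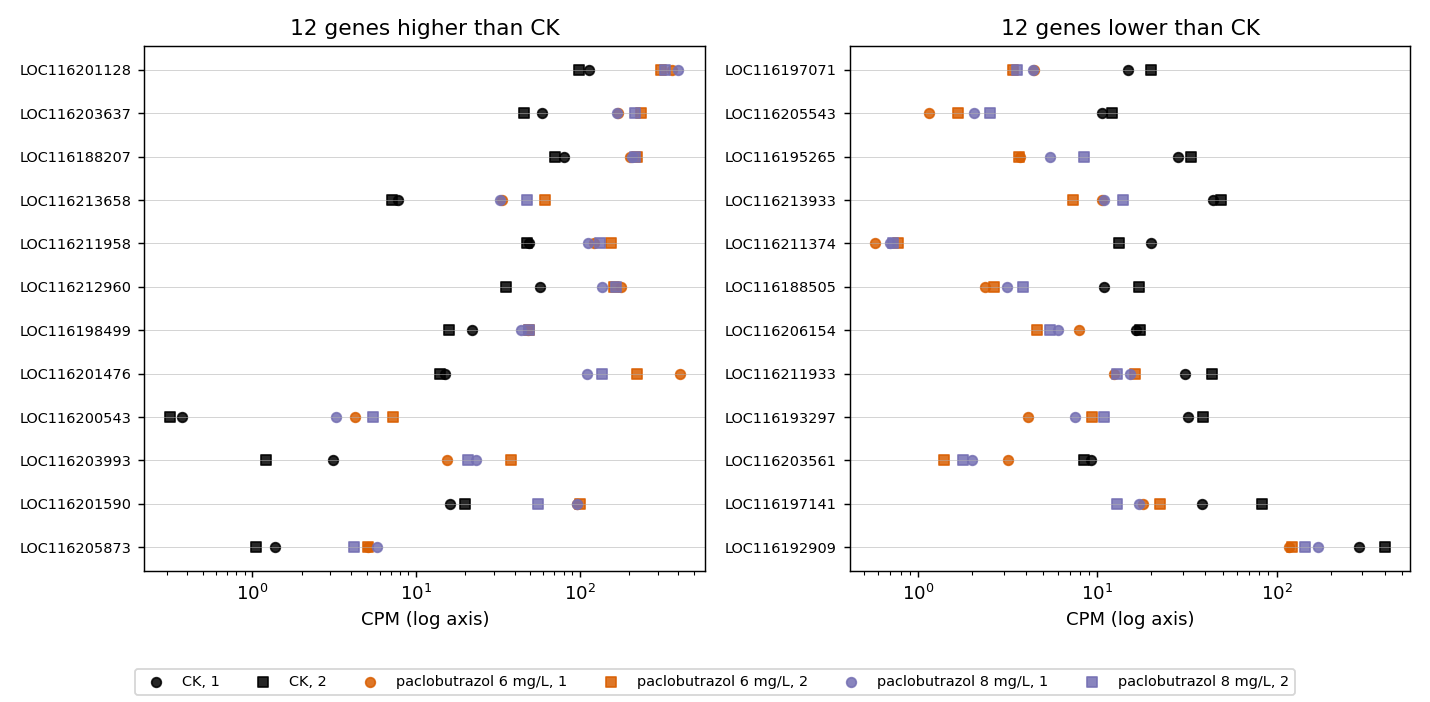
CPM on a log axis of the 12 upregulated (left) and 12 downregulated (right) DEGs with the smallest adjusted p, 1 point for each plant; black is CK, orange 6 mg/L and violet 8 mg/L paclobutrazol, circles replicate 1 and squares replicate 2. The rule that chose these genes required the 4 treated plants to lie on one side of both CK plants, so this separation is built in. In LOC116197071 CK is at 14.8 and 19.96 CPM and the treated plants are between 3.39 and 4.44 CPM.

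Among downregulated genes, LOC116197071 had the smallest adjusted p. It fell from 14.8 and 19.96 CPM in the CK plants to 4.44, 3.39, 4.38 and 3.57 CPM in the treated plants, with no order by dose (log2 fold change -2.14, SE 0.21, adjusted p = 0.00526). LOC116205543 fell from 10.6 and 12.1 CPM to 1.15, 1.67, 2.04 and 2.51 CPM, and LOC116195265 from 28.1 and 33.5 CPM to 3.73, 3.67, 5.42 and 8.40 CPM. In both genes the 6 mg/L plants are lower than the 8 mg/L plants, although the test between doses called neither. LOC116211374 showed the largest change of the 12, from 19.8 and 13.1 CPM to 0.577, 0.778, 0.697 and 0.727 CPM, with a log2 fold change of -4.56 (SE 0.57). All 4 treated plants were under 1 CPM, as were both plants of 2.5 g/L mannitol, at 0.824 and 0.349 CPM, whereas the B9 plants held 1.15 to 7.16 CPM.

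LOC116192909 was the most abundant of the 12, at 288 and 402 CPM in CK and 118, 122, 170.1 and 144 CPM under paclobutrazol, while B9 plants held 242 to 271 CPM and mannitol plants 405 to 664 CPM. LOC116213933 fell from 44.2 and 49.01 CPM to 10.6, 7.28, 10.9 and 13.9 CPM, LOC116188505 from 10.8 and 16.98 CPM to 2.35, 2.67, 3.13 and 3.84 CPM. LOC116206154 and LOC116203561 are downregulated genes in which replicate 1 of 6 mg/L is the highest treated plant, at 7.90, 4.61, 6.07 and 5.42 CPM against 16.3 and 17.4 CPM in CK for the former. LOC116203561 stood at 9.23 and 8.39 CPM in CK and 3.19, 1.39, 1.99 and 1.79 CPM in the treated plants. In LOC116193297 that plant was instead the lowest, at 4.13, 9.34, 7.46 and 10.9 CPM against 31.9 and 38.8 CPM. LOC116211933 fell from 30.99 and 43.3 CPM to 12.4, 16.3, 15.2 and 12.8 CPM, and LOC116197141 from 38.5 and 83.04 CPM to 17.97, 22.3, 17.1 and 12.9 CPM, a gene whose CK plants differ more than 2-fold.

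All 24 genes kept their call under most other settings of the analysis, with the exceptions of the fit to 6 libraries by edgeR (1 of 24 kept), the fits without CK replicate 1 (12) or without CK replicate 2 (0), and a stricter filter on low counts, under which 23 were tested and all of these kept their call.

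Some DEGs were expressed at almost 1 level in all 4 treated plants. The spread over the plants, taken as the highest minus the lowest log2 CPM, was under 0.5 in 40 of the 364 upregulated DEGs. It was under 0.5 in 19 of the 197 downregulated DEGs. Both are lower shares than the 14.8% of all tested genes, so such uniformity was no more frequent among DEGs. The median spread was 1.03 in upregulated and 1.16 in downregulated DEGs, beside 1.14 in all tested genes. Named after their values were seen, the most uniform DEG with counts in every plant was LOC116189383, at 27.99, 27.5, 27.6 and 29.2 CPM in the treated plants against 12.9 and 9.13 CPM in CK, a range of 0.087 log2 units. LOC116212209 was the counterpart among downregulated genes, at 4.92, 4.83, 4.68 and 4.36 CPM against 8.38 and 11.02 CPM. In these genes the difference from CK is many times the spread between the treated plants, but the CK plants differ from each other more than the treated ones do.

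The comparison with the other treated plants uses no CK library and asks where paclobutrazol plants stood apart from B9 and mannitol plants. Of all tested genes, 6.46% differed, 4.86% being higher and 1.6% lower under paclobutrazol. Among the DEGs against CK, 145 of the 364 upregulated genes (39.8%) were also higher than in the other treatments, and 66 of the 197 downregulated genes (33.5%) were also lower. Every paclobutrazol plant lay above all 10 other plants in 113 upregulated genes, where 2.78% of tested genes did so, and below all 10 in 57 downregulated genes, beside 1.66% of tested genes. As the paclobutrazol libraries enter both comparisons, these shares are not independent of the first result. The counts of 145 and 66 became 2 and 6 without CK replicate 1, 0 and 0 without CK replicate 2, 745 and 998 without replicate 1 of 6 mg/L, and 37 and 22 without replicate 2 of 8 mg/L. Without replicate 2 of 6 mg/L, 75 upregulated genes were called in both comparisons.

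Among the DEGs against CK, 8 upregulated genes shared the smallest adjusted p of 0.000547 in this second comparison, and they are given here from the larger fold changes down. The last of them, LOC116195347 and LOC116188207, had log2 fold changes of 1.46 and 1.29. The first were LOC116203993, described above, and LOC116202415, at 26.5, 112, 39.7 and 52.7 CPM in the paclobutrazol plants, 7.68 and 7.29 CPM in CK, 2.07 to 11.4 CPM in B9 and 2.64 to 4.77 CPM in mannitol plants. Its log2 fold change was 2.95 against CK and 3.75 (SE 0.34) against the other treatments. LOC116186958 stood at 78.2, 94.5, 36.5 and 40.6 CPM under paclobutrazol, at 16.3 and 22.6 CPM in CK and at only 6.37 to 11.3 CPM in the 8 other treated plants. LOC116194885 shared this pattern of a rise under paclobutrazol beside values below CK or near it elsewhere, with 39.3, 73.7, 82.5 and 39.3 CPM, 18.03 and 14.8 CPM and 4.36 to 15.2 CPM. In LOC116186958 every one of the 8 B9 and mannitol plants lay below both CK plants.

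LOC116194671 rose from 22.8 and 11.7 CPM to 75.2, 213, 125 and 133 CPM, while mannitol plants stayed at 9.98 to 11.8 CPM and B9 plants were intermediate at 26.7 to 48.4 CPM. LOC116196211 stood at 25.998, 39.4, 31.4 and 26.8 CPM against 11.6 and 9.72 CPM in CK and 4.54 to 12.05 CPM in the other treatments. On the downregulated side LOC116208501 was at 208, 83.1, 135 and 132 CPM in the paclobutrazol plants and at 347 and 392 CPM in CK, while B9 and mannitol plants held 429 to 1044 CPM, above both CK plants in each case. Its log2 fold change was therefore larger against these treatments (-2.28) than against CK (-1.40). LOC116215147 stood at 92.7, 80.5, 80.6 and 88.2 CPM, 160.3 and 186 CPM and 160.0 to 351 CPM in the same order of groups, with both doses at nearly the same level.

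**Figure D3:**
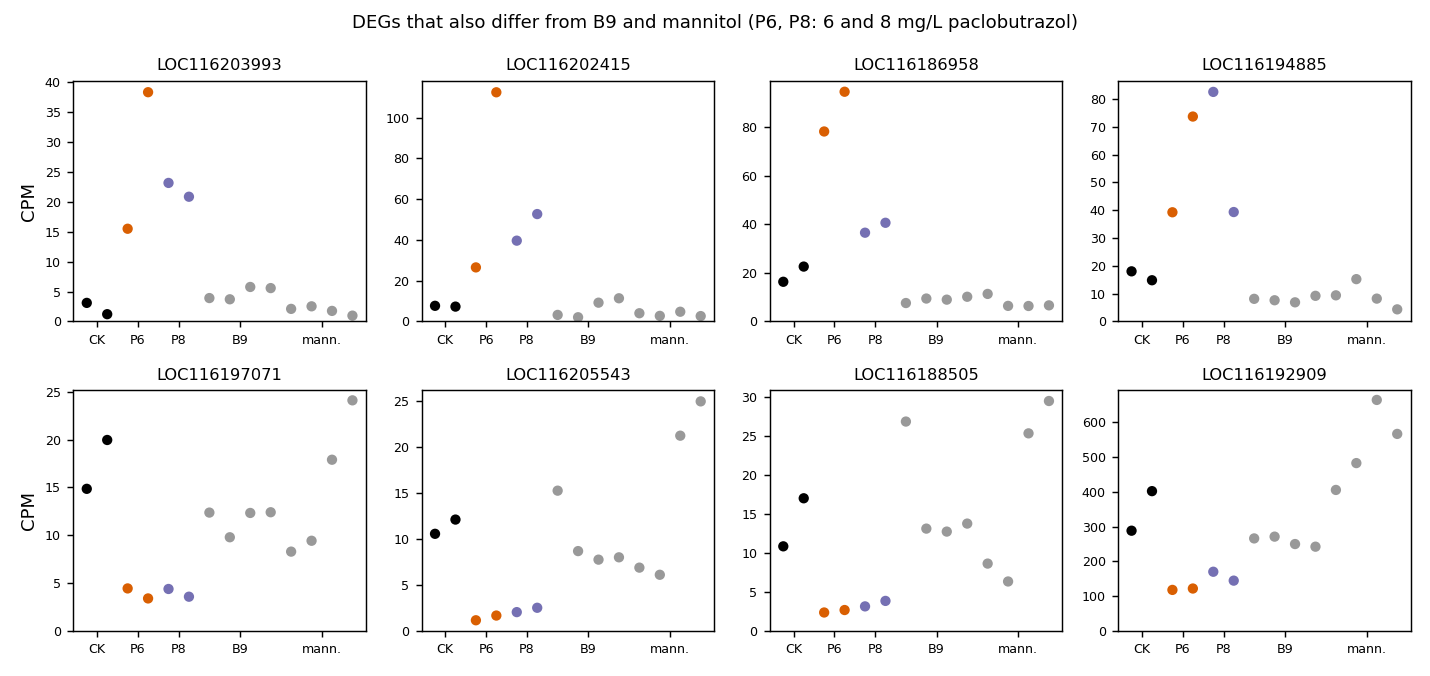
CPM of 8 DEGs that also differed from B9 and mannitol, 1 point for each of the 14 plants in the order CK (black), 6 mg/L (orange) and 8 mg/L (violet) paclobutrazol, then B9 and mannitol (grey), with axes from 0. In LOC116202415 the 4 paclobutrazol plants lie between 26.5 and 112 CPM and no other plant is above 11.4.

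Only 1 DEG moved in opposite directions in the 2 comparisons. LOC116199596 fell from 6.02 and 6.70 CPM in CK to 1.996, 1.78, 0.547 and 1.92 CPM under paclobutrazol, with a log2 fold change of -2.03, but the B9 and mannitol plants were lower still, at 0.301 to 0.989 CPM. Against them the paclobutrazol plants were higher by 1.52 log2 units (SE 0.33, adjusted p = 0.0126). Replicate 1 of 8 mg/L was the exception, at the level of the other treatments.

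The 6 mg/L plants disagreed over the whole transcriptome, not only in the DEGs. Across the 19478 tested genes their log2 CPM values had a Pearson correlation of 0.904, below the 0.967 of the 8 mg/L plants and the 0.973 of the CK plants. Replicate 2 of 6 mg/L was closer to the 8 mg/L plants (0.928 and 0.945) than to its own replicate, and replicate 1 had correlations of 0.908 and 0.886 with them. The difference between the replicates exceeded 1 log2 unit in 36% of tested genes at 6 mg/L and in 11.6% at 8 mg/L. Among the upregulated DEGs the shares were 38.5% and 6.32%, and among the downregulated DEGs 26.4% and 18.3%. Both 8 mg/L plants fell between the 6 mg/L plants in 40.9% of the upregulated and in 20.3% of the downregulated DEGs, beside 25.8% of all tested genes.

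The 4 upregulated DEGs named here carried the largest gap between these plants. LOC116214825 rose from 73.2 and 167 CPM in CK to 394, 7554, 1673 and 5602 CPM, so that replicate 1 of 6 mg/L was a few times and replicate 2 many times the CK level. LOC116202504 stood at 0.517 and 0.157 CPM in CK and at 0.621, 11.2, 13.9 and 14.1 CPM in the treated plants, and in this gene replicate 1 of 6 mg/L was hardly above the higher CK plant. In counts, LOC116212642 had 0 and 1 reads in CK and 37, 575, 42 and 125 in the treated plants, and LOC116214791 had 0 in both CK plants and 9, 142, 52 and 55 under paclobutrazol.

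The downregulated DEGs with the largest gap moved further in replicate 2 as well. LOC116188116 fell from 3.51 and 2.78 CPM to 0.799, 0.0556, 0.597 and 0.132 CPM, LOC116193315 from 4.14 and 14.7 CPM to 2.93, 0.500, 1.24 and 0.926 CPM, and LOC116195314 from 13.96 and 23.7 CPM to 4.39, 0.834, 5.57 and 3.64 CPM. In the long non-coding RNA LOC116214829 the values were 3.07 and 2.74 CPM in CK and 0.532, 0.0556, 0.448 and 0.198 CPM in the treated plants. Replicate 1 of 6 mg/L was the highest treated plant in LOC116188116, LOC116193315 and LOC116214829, whereas in LOC116195314 it was replicate 1 of 8 mg/L.

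A larger set of genes mostly did not reach the DEG list by edgeR, having moved in 3 plants and not that way in replicate 1 of 6 mg/L. In 615 tested genes (3.16%) the other 3 treated plants were above CK by more than 1 log2 unit while this plant was less than 0.5 above it, and 13 of them were DEGs by edgeR and 307 by DESeq2. In 995 genes (5.11%) the 3 plants were below CK by more than 1 while this plant was less than 0.5 below it, and 0 were DEGs by edgeR, with 287 at an unadjusted p under 0.05 and 66 called by DESeq2. The same count with 6 mg/L replicate 2 as the exception gave 64 and 55 genes, with 8 mg/L replicate 1 it gave 44 and 136, and with 8 mg/L replicate 2 it gave 29 and 26. The values of these plants chose the 615 and 995 genes and are a description. The sets differed in gene length, with a median of 2113 bases in the 615 and of 6549 in the 995 genes beside 3104 in all tested genes. The same 3 plants were those whose change from CK fell with gene length over all tested genes, as given below, and the part of this trend in the sets was not tested. In the 615 genes the B9 libraries had median log2 changes of 0.98 to 1.38 and the mannitol libraries 0.01 to 0.44. These changes are measured from the same 2 CK plants that helped to choose the genes, so a shift in the same direction is partly built in. In the 995 genes the B9 medians were -1.14 to -0.70 and the mannitol medians -0.37 to 0.25.

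Examples of this set, chosen for their size after the values were seen, show the pattern plainly. LOC116193082 was at 1.51 and 9.02 CPM in CK and at 1.86, 132, 162 and 154 CPM under paclobutrazol, with replicate 1 of 6 mg/L inside the range of CK. LOC116186995 measured 1.33 and 2.16 CPM and 2.31, 84.7, 93.8 and 205 CPM. LOC116210035 was not counted in CK or in replicate 1 of 6 mg/L and stood at 6.95, 20.8 and 63.6 CPM in the other 3 plants, and LOC116195823 was likewise at 0 in these and at 38.5, 3.83 and 2.18 CPM in the others. In the other direction LOC116203947 measured 17.8 and 11.7 CPM in CK and 17.3, 1.06, 0.498 and 0.397 CPM in the treated plants. None of these 5 genes was a DEG by edgeR, with adjusted p between 0.070 and 0.354. By DESeq2 on the same 14 libraries, 4 of the 5 were DEGs.

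In LOC116201290 and LOC116198565 and in the long non-coding RNA LOC116216004, replicate 1 of 6 mg/L was above both CK plants and the other 3 treated plants were at or near 0. LOC116201290 measured 24.4 and 21.6 CPM in CK and 46.6, 0.0556, 0 and 0 CPM under paclobutrazol, with 0 to 55.9 CPM over the B9 plants and 0 in every mannitol plant. LOC116216004 stood at 2.44 and 1.88 CPM in CK and 4.44 CPM in replicate 1 of 6 mg/L. LOC116198565 stood at 1.99 and 1.49 CPM in CK and 2.48 CPM in that plant. Both were at 0 in the other 3 treated plants.

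**Figure D4:**
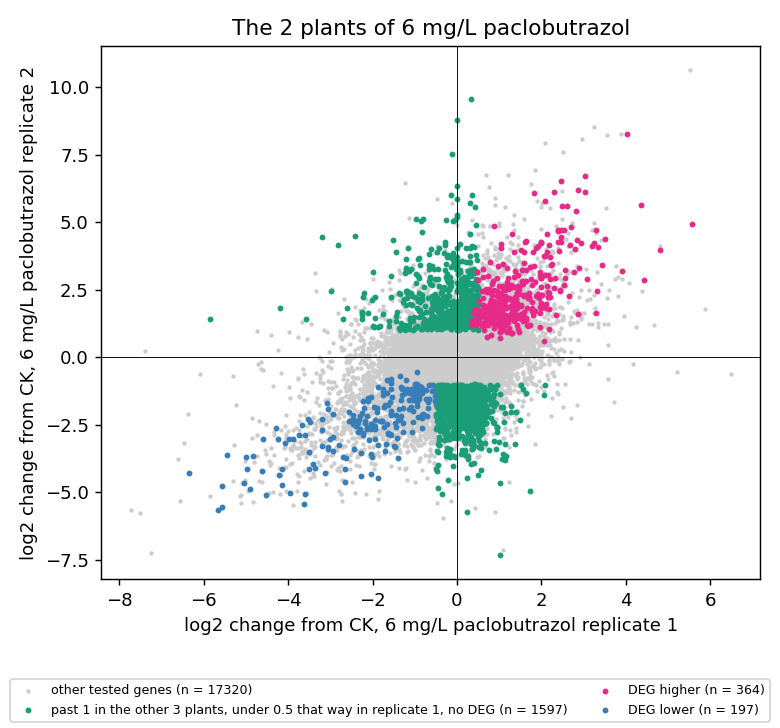
Log2 change from the CK mean in replicate 1 (horizontal) and replicate 2 (vertical) of 6 mg/L paclobutrazol, 1 point for each tested gene. The 364 upregulated and 197 downregulated DEGs lie in the quadrants where both plants moved the same way. The 1597 green genes passed 1 log2 unit in the other 3 plants and stayed under 0.5 that way in replicate 1. No limit was set the other way, so some of them, such as LOC116201290, moved in the opposite direction in replicate 1.

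Between the doses, 8 against 6 mg/L, 1.49% of all tested genes differed when each dose was fitted with its own mean. Of the 561 DEGs, 2 were among them. The DEGs were called with 1 mean for both doses, so a difference between doses counted as error. The low number among the DEGs is therefore partly built in. LOC116210600 was upregulated more at the lower dose, at 185 and 137 CPM in CK and 608, 814, 311 and 327 CPM under paclobutrazol, a difference of -1.16 log2 units between 8 and 6 mg/L (SE 0.227, adjusted p = 0.0413). LOC116215872 was downregulated more at the lower dose, with 66.2 and 84.8 CPM in CK and 19.96, 18.3, 43.9 and 35.5 CPM in the treated plants, a difference of 1.05 (SE 0.208, adjusted p = 0.0421). In both genes the plants of the 2 doses did not overlap.

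Some of the most abundant DEGs are given here, named once their values were known. LOC116205967 rose from 2097 and 3046 CPM in CK to 5072, 15640.1, 24421 and 32646 CPM in the treated plants, with 8 mg/L above 6 mg/L and replicate 1 of 6 mg/L the lowest (log2 fold change 2.92, SE 0.66). The B9 and mannitol plants were also above CK, at 5678 to 13697 CPM. LOC116213630 rose from 515 and 350.3 CPM to 1791, 5696, 2158 and 4012 CPM and LOC116192443 from 360.4 and 322 CPM to 873, 5000.0, 1852 and 3114 CPM, and in both the second replicate of each dose was the higher. Among the abundant downregulated genes LOC116203863 fell from 279 and 400.3 CPM to 124, 42.3, 62.6 and 60.9 CPM and LOC116195549 from 249 and 435 CPM to 150.2, 86.4, 149 and 97.2 CPM. In LOC116203863 replicate 1 of 6 mg/L lay well above the other 3 treated plants.

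At the other end, 13 upregulated DEGs had 3 counts or fewer in both CK libraries, and 15 downregulated DEGs had 3 or fewer in all 4 paclobutrazol libraries. With these genes set to their lower bounds against a floor of 3 counts per library, the median log2 fold changes of the DEGs were 1.67 and -2.03. LOC116195074 had no count in CK and 12, 65, 25 and 52 counts under paclobutrazol, at least 19.3-fold higher, and at most 3 counts in any B9 or mannitol library. LOC116210202 had no count in CK either, and 41, 10, 23 and 16 counts in the treated plants, at least 10-fold higher. LOC116194512, with 4, 6, 17 and 11 counts against 0, was at least 4.56-fold higher, and LOC116214791, given above, at least 31.8-fold. LOC116210202 and LOC116195074 were above every other plant, whereas LOC116194512 reached 48 counts in a B9 plant.

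Among the downregulated genes at the floor, LOC116198780 had 88 and 150 counts in CK and 0, 0, 0 and 3 in the paclobutrazol plants, but it was also near 0 in the 8 other treated plants, with 6 counts at most. LOC116207216 had 75 and 54 counts in CK against 0, 2, 2 and 0. LOC116213140 had 38 and 39 against 0, 0, 1 and 1. LOC116187301 rested on 1 CK plant, with 8 counts in CK replicate 1 and 606 in CK replicate 2, against 1, 0, 0 and 0 counts under paclobutrazol. LOC116205106 was the only DEG with no count in any paclobutrazol library, and it had 2 and 28 counts in CK. CK replicate 1 was thus itself under the floor, and the difference rested on CK replicate 2. Its B9 and mannitol libraries held 6 to 60 counts.

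Protein-coding genes made up 342 of the upregulated and 189 of the downregulated DEGs, and the other 22 and 8 were long non-coding RNAs. The share of tested genes called upregulated was 1.85% for protein-coding genes and 2.53% for long non-coding RNAs, and for downregulated genes it was 1.02% and 0.921%. Of the long non-coding RNAs, LOC116207998 rose from 8.87 and 7.25 CPM in CK to 20.3, 31.6, 22.1 and 24.998 CPM, above the 6.19 to 12.7 CPM of the other treatments. LOC116209972 stood at 3.84 CPM in both CK plants and at 8.83, 9.72, 8.61 and 9.52 CPM under paclobutrazol. LOC116211922 fell from 2.18 and 2.86 CPM to 0.710, 0.667, 0.647 and 0.529 CPM and LOC116192906 from 12.04 and 14.2 CPM to 7.32, 5.17, 4.88 and 4.17 CPM. In LOC116192906 replicate 1 of 6 mg/L was the highest treated plant. The counting is not stated to use strand, so reads of a non-coding RNA and of a gene on the other strand cannot be told apart.

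Upregulated DEGs had a median gene length, introns included, of 2187 bases, beside 3399 for downregulated DEGs and 3104 for all tested genes. With the tested genes cut into 4 equal groups by length, 3.24% of the shortest group were upregulated, and the share was 2.32%, 1.05% and 0.863% in the following groups. The share downregulated was 0.985%, 0.822%, 0.966% and 1.27%. The change from CK also went with length in single plants, over all tested genes: Spearman's rho was -0.33 in replicate 2 of 6 mg/L and -0.31 and -0.32 in the 8 mg/L plants, but 0.086 in replicate 1 of 6 mg/L. The CK plants set against each other gave 0.11. After the trend with length was removed from each library, 538 genes were DEGs and 431 of the 561 were still called.

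**Figure D5:**
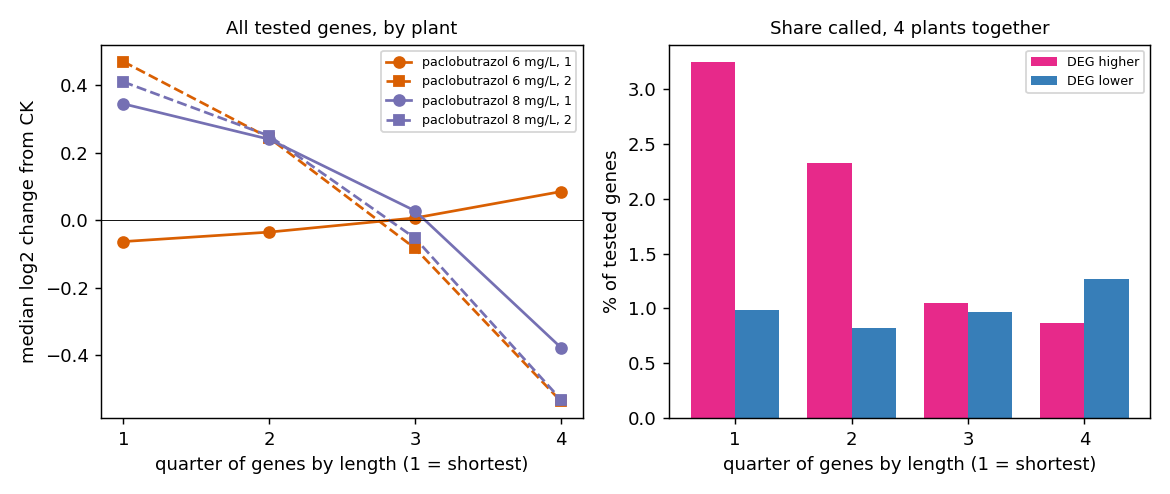
Left, the median log2 change from CK in each paclobutrazol plant over 4 groups of tested genes, equal in size, from the shortest to the longest. Right, the percent of each group called as DEGs; the upregulated share falls from 3.24% to 0.863%, and replicate 1 of 6 mg/L is the only plant whose medians do not fall with length.

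Along the chromosomes, 22 of the 364 upregulated DEGs (6.04%) had an upregulated DEG as an adjacent gene, where 3.04% of all tested genes had one. No downregulated DEG did, beside 1.68% of tested genes. The 22 genes formed 8 pairs and 2 runs of 3. In the first run LOC116199160 rose from 131 and 155 CPM in CK to 232, 516, 390.1 and 469 CPM, LOC116199161 from 88.7 and 66.7 CPM to 138, 263, 138 and 239.9 CPM and LOC116198579 from 57.8 and 44.3 CPM to 94.4, 159.6, 90.9 and 165 CPM. Replicate 2 of 6 mg/L was the highest treated plant in the first 2 of these genes, and second to replicate 2 of 8 mg/L in the last. In the other run LOC116211034 rose from 20.02 and 17.8 CPM to 90.99, 209, 130.4 and 229 CPM, LOC116211966 from 41.4 and 42.4 CPM to 53.9, 106, 85.7 and 90.8 CPM and LOC116212345 from 108 and 81.4 CPM to 179, 338, 182 and 229 CPM. Of these 6 genes LOC116212345 alone was also called against B9 and mannitol, whose plants held 47.1 to 119 CPM. Neighbouring copies of a gene could share reads, although reads with several locations were removed by the authors before counting.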

How the data were processed

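The authors aligned the filtered reads of 14 leaf libraries with hisat2, dropped those with several locations, and counted the rest by gene with featureCounts, which gave the deposited raw counts. The reference genome is given by citation, and program versions, an assembly name and the strand setting are not given in the sources used here. Libraries had been prepared with a NEBNext Ultra RNA kit from TRIzol extracts. All 14 columns of counts were used. Symbols were matched to the RefSeq gene table of ASM765513v2 for biotype, gene length and gene order. It held 27509 of the 27893 symbols, the other 384 being numbered tRNA names.

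Counts were analysed in R 4.3.3 with edgeR 4.0.16. The function filterByExpr, with a minimum count of 10, kept 19478 genes, and TMM scaled the libraries. A quasi-likelihood model was fitted to all 14 libraries, with 1 mean for CK, 1 for the 4 paclobutrazol libraries and 1 for each other condition, so the spread between doses and plants counts as error and the B9 and mannitol plants help to estimate it. It left 8 residual degrees of freedom, a prior of 2.96, a biological coefficient of variation of 36.3% and a median standard error of 0.33 for a log2 fold change. Tests were two-sided, with Benjamini-Hochberg adjustment over all tested genes. Log2 CPM used a prior count of 2. No coordinates or sequences are given.

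The group and the gene rules were chosen with earlier results of these data known. Named genes are the 12 up- and 12 downregulated DEGs with the smallest adjusted p, ties by fold change, whose treated plants all lie beyond both CK plants, the 4 in each direction with the largest gap between 6 mg/L plants, and sets of 5 or fewer. Other names (uniform, abundant, set apart from B9 and mannitol, non-coding, neighbouring, at the floor, or apart in 1 plant) were chosen after values were seen. Methods were tested on simulated counts in which the plants of a condition followed the same mean. Those counts were drawn without the wide disagreement of the 6 mg/L plants, which the test therefore does not cover. Alternatives were DESeq2 1.42.0 or edgeR on 14 or 6 libraries, other scalings and filters, the adjusted p alone, 7 condition means, a replicate block, removal of the length trend, other thresholds per plant, and libraries or doses left out.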

Additional observations from a re-analysis of the deposited data

Results flagged for a closer look

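In 15 of the 93 named genes the most extreme of the 4 paclobutrazol plants lay far from the other 3. This was judged by the gap to its nearest neighbour over the whole range of log2 CPM (Dixon's ratio, above its 95% critical value). The ratio was not taken over all tested genes, so no background share stands beside the 15. Chance marks about 1 in 20 groups. Replicate 1 of 6 mg/L was the lowest plant in LOC116202504 (ratio 0.923), LOC116209401 (0.856) and LOC116193082 (0.953), and the highest in LOC116201290 (0.922), LOC116216004 (1), LOC116198565 (1), LOC116209215 (1) and LOC116187301 (1). Replicate 1 of 8 mg/L was the lowest in LOC116198499 (0.839) and LOC116199596 (0.907), and the highest in LOC116202896 (1). Replicate 2 of 8 mg/L was the lowest in LOC116201590 (0.925) and the highest in LOC116198780 (1), LOC116211716 (1) and LOC116213067 (1). A ratio of 1 means that the other 3 plants had no spread, here because all 3 had 0 counts. In LOC116213067, LOC116202896 and LOC116187301 it rests on 1 read, in LOC116209215 and LOC116211716 on 2 reads and in LOC116198780 on 3 reads of a single plant, so the zeros fix it. LOC116193082, LOC116201290, LOC116216004 and LOC116198565 had been chosen for their distance in 1 plant and LOC116202504 for the gap between the 6 mg/L plants. In LOC116198499 the 4 plants covered only 43.8 to 49.3 CPM.

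Between the doses, the effect against CK differed in LOC116210600, by -1.16 log2 units for 8 against 6 mg/L, and in LOC116215872, by 1.05, both tested by a contrast of the doses in edgeR (adjusted p = 0.0413 and 0.0421).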

How the results depend on the processing

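The counts of DEGs depended more on the libraries and the tool than on scaling or filters. For all, up- and downregulated DEGs, in that order, edgeR gave 561, 364 and 197, DESeq2 gave 1848, 1228 and 620 on 14 libraries (557 of the 561 among them), and with 7 condition means the counts were 1084, 566 and 518. On 6 libraries edgeR gave 1, 0 and 1 (1911 at an unadjusted p under 0.05 with the fold change) and DESeq2 1003 and 736. Without the 6 mg/L libraries the counts were 3746, 1722 and 2024. Library size alone gave 308 downregulated DEGs. With each CK or paclobutrazol library left out in turn, the counts ranged from 0 to 3840, 0 to 1840 and 0 to 2000; a lone CK library was assumed to vary like the other groups. DEGs past 1 log2 unit in every plant, 210 up and 145 down, were 381 and 285 with DESeq2 on 14 libraries, 0 and 1 with edgeR on 6, 353 up with DESeq2 on 6, 1324 and 1635 without the 6 mg/L libraries, and 0 to 1066 and 0 to 1375 with a library left out. Those lower were 93 with a mean count of at least 50, 237 with 7 condition means and 238 without the 8 mg/L libraries. Where paclobutrazol libraries were left out, only the plants still in the fit had to pass 1 log2 unit. Thresholds of 0.5 and 1.5 per plant gave 350 and 99 up, and 1.5 gave 89 down. Against B9 and mannitol, 947 genes were higher and 312 lower; the adjusted p alone gave 2047 and 965, DESeq2 496 lower, 7 condition means 514 lower, the fit without 6 mg/L 1435 lower, and single libraries left out 727 to 1491 and 212 to 1304. DEGs called in both comparisons, 145 up and 66 down, were 462 and 175 with DESeq2, 287 and 109 by the adjusted p alone, 679 and 1056 without 6 mg/L, and 0 to 745 and 0 to 998 with a library left out. Those down were 164 with 7 condition means and 123 without 8 mg/L. The cause of these shifts was not tested. LOC116201290 and LOC116216004, no DEGs, changed sign without the 8 mg/L libraries, to 0.0065 and 0.031.

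No label says whether replicate numbers pair the samples. Of 21 correlations of replicate differences between conditions, from -0.29 to 0.39, 6 were over 0.1. Among the groups compared they were 0.35 for 6 with 8 mg/L, 0.12 for CK with 6 mg/L and -0.087 for CK with 8 mg/L. A replicate block gave 250, 158 and 92 DEGs (243 shared with the 561), 116 and 74 past 1 in every plant, and 67 and 40 called in both comparisons. The gene lists by protein signature, the promoter words and the leaf markers were not run, as proteins, promoters and product names were not used here. At these depths, the genes at the floor of 3 counts allow bounds only.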
